A study of Mus musculus with 2 samples.

Results

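Genes for matricellular proteins, proteoglycans, elastic fibre proteins and enzymes that fold or crosslink the extracellular matrix were followed in mouse embryonic stem cell cultures with and without Mof. The set holds 44 genes chosen by symbol, and all probe sets annotated to exactly 1 of these genes were taken. That gave 92 probe sets for 41 genes, of 18193 genes measured. Fbn1, Loxl2 and Spp1 were not analysed here, because no probe set used here named them alone. One culture was labelled MOF-/- (Mof null) and one was labelled MOF +/+ (wild type), with 1 array each. Mof acetylates histone H4, and its gene symbol is Kat8. Both lines were C57BL/6, derived at 3.5 dpc, kept on embryonic fibroblast feeders with LIF, used at passage 15 to 18, and passaged 2 times without feeders before RNA was taken. The labels do not state how the deletion was made or whether each line is a single clone.

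The extracellular matrix is the meshwork of fibrous proteins and sugar-bearing proteoglycans that cells secrete around themselves. Fibroblasts and other mesenchymal cells are its main makers. Prolyl and lysyl hydroxylases modify collagen in the endoplasmic reticulum, lysyl oxidases crosslink collagen and elastin outside the cell, small leucine-rich proteoglycans bind and space collagen fibrils, and matricellular proteins alter how cells attach and signal without being structural parts. Syndecans and glypicans are proteoglycans of the cell surface whose heparan sulfate chains bind growth factors. Pluripotent stem cells make little fibrillar matrix but carry heparan sulfate proteoglycans and basement membrane components.

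Values are RMA values on a log2 scale. The arrays are named by their labels, null-labelled and WT-labelled, and a difference is the null-labelled value minus the WT-labelled one. With 1 array per genotype there was no replicate error and no test. Genes were described by a rule of size, at least 2-fold on the brightest probe set, among genes whose mean over both arrays reached 6.02, the median of all values. Kat8 itself read 8.37 on the null-labelled array and 8.06 on the WT-labelled array. The labels do not say which part of the gene was deleted, so this value does not check them, and every direction below rests on them. The only measurable spread was that between probe sets of a gene, with a pooled SD of 0.32 log2 units over 5079 genes and 0.33 over the 25 members with several probe sets above the level filter. This spread holds no variation between cultures. The median gene differed by 0.10 log2 units.

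Promoter sequences are shown for 3 pairs of members that stand for the patterns described below. The glypican genes Gpc3 and Gpc4 differed in opposite directions, the prolyl hydroxylase genes P4ha1 and P4ha2 were both higher with Mof labelled null as deposited, and Ogn and Thbs2 were among the members with the largest negative differences. All run from 250 bases before to 50 bases after the annotated start, from RefSeq on GRCm38.p6, 5′ to 3′ on the strand of the gene. In the first 4, capitals mark ACGTG or GCGTG on either strand, the core letters of the site bound by hypoxia-inducible factors. In the last 2, which hold none of these, capitals mark TATAAA on either strand. Gpc3 lies on the minus strand at chrX:52613925-52614224, Gpc4 on the minus strand at chrX:52164874-52165173, P4ha1 on the plus strand at chr10:59323046-59323345, P4ha2 on the plus strand at chr11:54100674-54100973, Ogn on the plus strand at chr13:49607765-49608064 and Thbs2 on the minus strand at chr17:14694213-14694512.
Gpc3: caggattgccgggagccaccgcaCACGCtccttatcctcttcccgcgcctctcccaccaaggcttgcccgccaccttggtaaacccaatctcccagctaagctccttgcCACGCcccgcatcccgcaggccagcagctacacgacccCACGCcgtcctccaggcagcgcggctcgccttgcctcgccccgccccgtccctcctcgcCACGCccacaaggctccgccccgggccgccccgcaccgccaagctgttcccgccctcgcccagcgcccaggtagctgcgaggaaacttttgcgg
Gpc4: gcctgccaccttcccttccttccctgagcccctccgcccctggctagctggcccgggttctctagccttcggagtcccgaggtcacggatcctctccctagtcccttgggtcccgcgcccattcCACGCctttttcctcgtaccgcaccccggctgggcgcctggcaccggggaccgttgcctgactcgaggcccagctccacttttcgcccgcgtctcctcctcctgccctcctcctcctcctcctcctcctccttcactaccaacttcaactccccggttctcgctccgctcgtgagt
P4ha1: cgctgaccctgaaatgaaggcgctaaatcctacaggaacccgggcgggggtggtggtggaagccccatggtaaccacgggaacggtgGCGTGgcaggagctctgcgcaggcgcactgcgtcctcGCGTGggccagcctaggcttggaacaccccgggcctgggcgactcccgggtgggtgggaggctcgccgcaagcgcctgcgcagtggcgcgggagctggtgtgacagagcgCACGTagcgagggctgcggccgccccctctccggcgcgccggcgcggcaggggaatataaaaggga
P4ha2: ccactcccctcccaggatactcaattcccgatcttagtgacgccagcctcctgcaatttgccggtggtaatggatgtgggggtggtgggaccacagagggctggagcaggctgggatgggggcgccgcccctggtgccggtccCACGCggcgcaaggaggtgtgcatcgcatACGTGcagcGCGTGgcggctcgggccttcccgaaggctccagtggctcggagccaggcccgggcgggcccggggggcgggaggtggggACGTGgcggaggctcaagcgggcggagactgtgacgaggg
Ogn: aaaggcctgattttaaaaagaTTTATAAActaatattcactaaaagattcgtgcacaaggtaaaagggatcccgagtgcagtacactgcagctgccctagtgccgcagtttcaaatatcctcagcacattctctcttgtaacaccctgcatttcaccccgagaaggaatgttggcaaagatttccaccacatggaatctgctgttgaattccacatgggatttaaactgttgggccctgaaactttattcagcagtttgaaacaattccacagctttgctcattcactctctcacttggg
Thbs2: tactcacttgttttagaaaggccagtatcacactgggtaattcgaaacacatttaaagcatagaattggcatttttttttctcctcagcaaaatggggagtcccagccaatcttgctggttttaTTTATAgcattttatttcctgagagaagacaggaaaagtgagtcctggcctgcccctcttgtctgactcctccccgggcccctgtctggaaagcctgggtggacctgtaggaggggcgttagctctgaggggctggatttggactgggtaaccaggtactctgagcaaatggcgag

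Most of the matrix genes were lower on the null-labelled array. Of the 39 members above the level filter, 22 were at least 2-fold lower, against 11.5% of the 11612 genes above the filter. Only Gpc3 was at least 2-fold higher, against 4.88% of all genes. Of the other 16, 10 were lower and 6 higher by less than 2-fold. Counted by any amount, 32 of the 39 members were lower and 7 higher, beside 4996 and 6580 of all 11612 genes. The median difference of the 39 was -1.32 log2 units (SD over genes 0.98), beside 0.10 for all genes. At 1.5-fold, 27 members were lower, against 18.8% of all genes, and 2, Gpc3 and P4ha2, were higher, against 17% of all genes. At 4-fold, 7 members were lower, against 3.10% of all genes, and none was higher, against 0.25%. All 22 members past 2-fold stayed above the level filter on the null-labelled array. In such RNA from whole cultures, fewer cells of one type and less RNA per cell cannot be told apart.

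**Figure D1:**
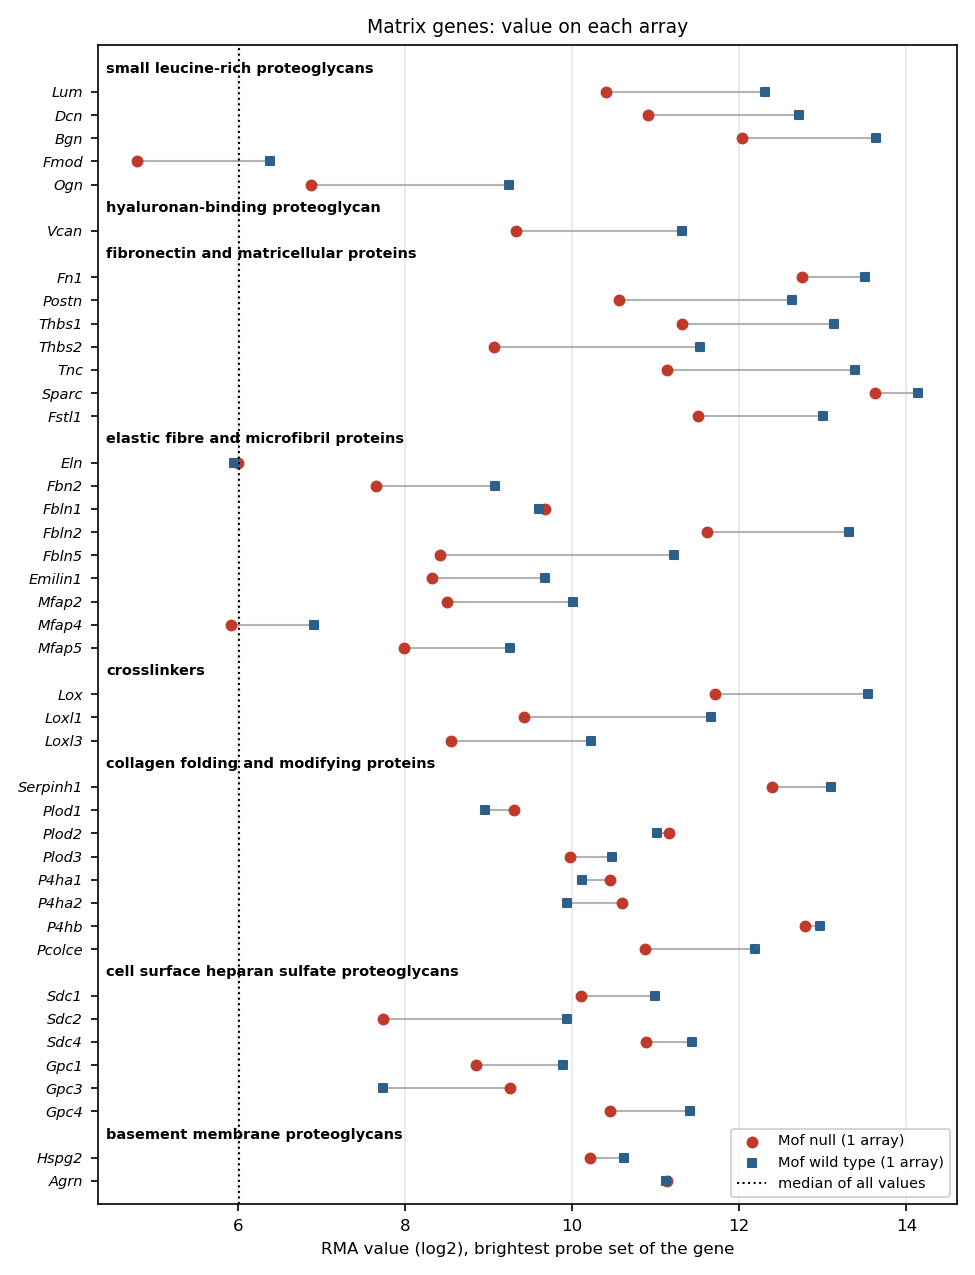
RMA values (log2, horizontal axis) of the 41 measured matrix genes on the null-labelled array (circles) and the WT-labelled array (squares), 1 array each, grouped by role; the dotted line is the median of all values, 6.02. Gpc3 is the one gene with the circle far to the right of the square, and most collagen-modifying enzymes have both marks close together.

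The small leucine-rich proteoglycans, which coat collagen fibrils, were at least 2-fold lower in each of the 4 genes above the level filter, against 11.5% of all genes. Their median difference was -1.86. Ogn, for osteoglycin, read 6.87 on the null-labelled array and 9.25 on the WT-labelled array, lower by 5.20-fold, and its second probe set differed by -2.09. Lum, for lumican, read 10.4 on the null-labelled array and 12.3 on the WT-labelled array, lower by 3.76-fold on its only probe set. Dcn, for decorin, read 10.9 on the null-labelled array and 12.7 on the WT-labelled array, lower by 3.51-fold. A second Dcn probe set, below the level filter, differed by -0.49. Bgn, for biglycan, read 12.03 on the null-labelled array and 13.6 on the WT-labelled array, lower by 3.05-fold, with its 3 probe sets between -1.75 and -1.48. These 4 genes thus differed by amounts several times the pooled spread between probe sets, each in the same direction. That spread holds no variation between cultures, and Lum and Dcn had only 1 probe set each above the level filter. Fmod, for fibromodulin, did not reach the level filter, with 4.79 on the null-labelled array and 6.39 on the WT-labelled array on the brightest of 6 probe sets. Versican, Vcan, the large proteoglycan that binds hyaluronan, read 9.33 on the null-labelled array and 11.3 on the WT-labelled array, lower by 3.98-fold. Its 3 probe sets above the filter lay between -2.08 and -1.51, and 5 further ones were near the floor of the scale.

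Among fibronectin and the matricellular proteins, 5 of 7 were at least 2-fold lower, against 11.5% of all genes, and the other 2 were lower by less. Thbs2, for thrombospondin 2, an antiangiogenic matricellular protein, read 9.07 on the null-labelled array and 11.5 on the WT-labelled array. It was lower by 5.51-fold, and its 3 probe sets lay between -2.46 and -2.28. Its relative Thbs1, which can activate latent TGF-beta, read 11.3 on the null-labelled array and 13.1 on the WT-labelled array, lower by 3.50-fold. The 2 thrombospondin members therefore differed in the same direction on all 5 of their probe sets. Tnc, for tenascin C, a matricellular protein of remodelling tissue, read 11.1 on the null-labelled array and 13.4 on the WT-labelled array, lower by 4.76-fold, and a second probe set differed by -3.01. Postn, for periostin, a matricellular protein of fibroblasts and periosteum, read 10.6 on the null-labelled array and 12.6 on the WT-labelled array, lower by 4.19-fold. Fstl1, a secreted glycoprotein of the follistatin family, read 11.5 on the null-labelled array and 13.0 on the WT-labelled array, lower by 2.83-fold.

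Fibronectin and Sparc differed least in this group. Fn1 read 12.7 on the null-labelled array and 13.5 on the WT-labelled array, lower by 1.69-fold, and its second, dimmer probe set differed by -0.97. Sparc, a collagen-binding matricellular protein, read 13.6 on the null-labelled array and 14.1 on the WT-labelled array, lower by 1.43-fold. Its probe sets did not share a sign. Those with means of 13.9 and 13.6 differed by -0.51 and -0.72, while a far dimmer one, with a mean of 6.66, differed by 0.16. Both genes lay near the top of the scale and had the highest means of all members. Of the next brightest members, P4hb and Serpinh1 differed by -0.18 and -0.71, whereas Bgn differed by -1.61. Among all genes with a mean of at least 12, 5.81% were at least 2-fold lower, against 14.9% of those between the filter and 8, whereas 6 of the 10 members with a mean of at least 12 were.

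**Figure D2:**
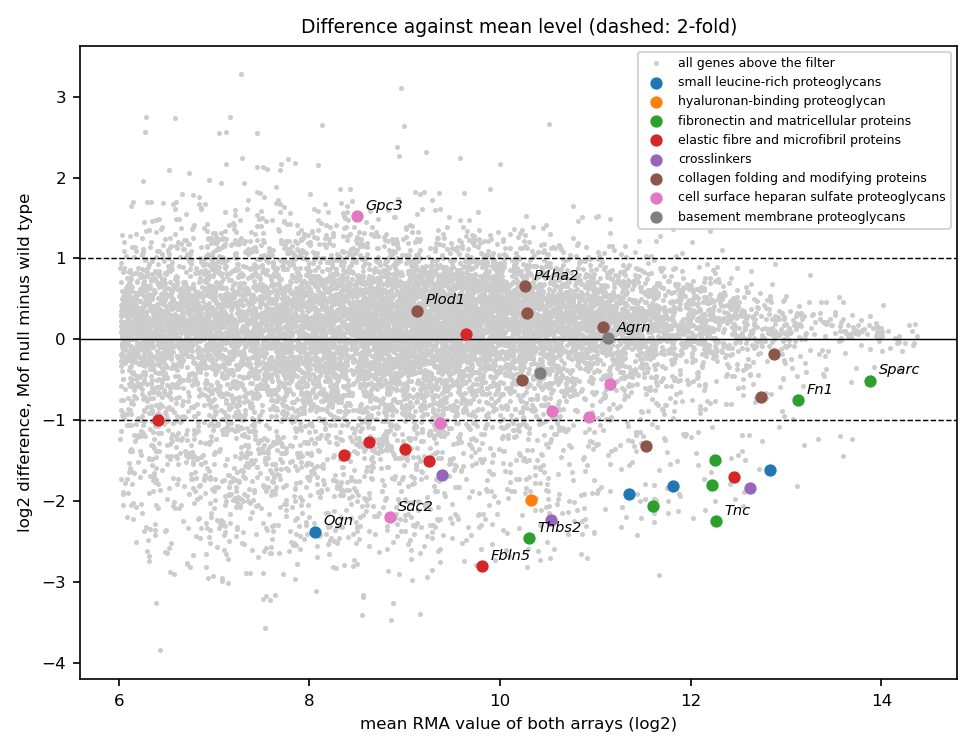
Difference (log2, Mof null minus wild type, vertical axis) against the mean RMA value of both arrays (log2, horizontal axis) for all 11612 genes above the level filter in grey and the 39 matrix members coloured by role; dashed lines mark 2-fold. Only 1 of the 39 members lies between the filter and 8, where 3707 of all genes lie, and 10 have a mean of at least 12. Fbln5 has the lowest difference and Gpc3 the highest, and the brightest members, Sparc and Fn1, lie above the lower dashed line.

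The elastic fibre genes, whose products form fibrillin microfibrils and attach elastin to them, were lower in 7 of 8. At least 2-fold lower were 6 of them, against 11.5% of all genes. Fbln5, for fibulin 5, needed for elastic fibre assembly, read 8.41 on the null-labelled array and 11.2 on the WT-labelled array. At 6.98-fold lower it had the largest difference of all 39 members on their brightest probe sets. A second Fbln5 probe set, below the level filter, differed by -0.30. Fbln2, for fibulin 2, read 11.6 on the null-labelled array and 13.3 on the WT-labelled array, lower by 3.25-fold. Fbln1, for fibulin 1, differed from both, with 9.67 on the null-labelled array and 9.61 on the WT-labelled array. Its 3 probe sets ran from -0.42 to 0.38, so no direction can be given for it. The 3 fibulin members were thus unlike, with differences of -2.80, -1.70 and 0.066 for Fbln5, Fbln2 and Fbln1 on their brightest probe sets.

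Fbn2, for fibrillin 2, a microfibril protein of embryonic tissues, read 7.65 on the null-labelled array and 9.08 on the WT-labelled array, lower by 2.69-fold, and both of its probe sets passed 2-fold. Mfap5, a microfibril-associated glycoprotein, read 7.99 on the null-labelled array and 9.26 on the WT-labelled array, lower by 2.41-fold, with both probe sets at -1.27. Mfap2, another microfibril-associated glycoprotein, read 8.51 on the null-labelled array and 10.01 on the WT-labelled array, lower by 2.84-fold. A second Mfap2 probe set differed by only -0.17, so its size is uncertain. Emilin1, a glycoprotein at the elastin and microfibril interface, read 8.32 on the null-labelled array and 9.68 on the WT-labelled array, lower by 2.57-fold, while a second probe set differed by -0.51. Mfap4, a microfibril-binding glycoprotein, lay just under the threshold, with 5.92 on the null-labelled array and 6.91 on the WT-labelled array, a difference of -0.997. Elastin itself, Eln, did not reach the level filter and read 6.00 on the null-labelled array and 5.96 on the WT-labelled array.

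The 3 lysyl oxidase members measured, Lox, Loxl1 and Loxl3, were each at least 2-fold lower, against 11.5% of all genes. Their median difference was -1.83. A further family gene outside the set, Loxl4, lay at the level filter with 5.93 on the null-labelled array and 6.12 on the WT-labelled array, a difference of -0.19. Lysyl oxidases oxidise lysines of collagen and elastin, the first step of crosslinking. Lox read 11.7 on the null-labelled array and 13.5 on the WT-labelled array, lower by 3.57-fold, with a second bright probe set at -1.72. Loxl1, required for elastin crosslinking, read 9.42 on the null-labelled array and 11.7 on the WT-labelled array, lower by 4.71-fold, with a second probe set at -1.59. Loxl3 read 8.55 on the null-labelled array and 10.2 on the WT-labelled array, lower by 3.21-fold on its only probe set.

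Among the members, the genes acting on collagen inside the cell had smaller differences than most of those for matrix and crosslinkers. This contrast was not tested. It did not hold for every matrix member, since Sparc and Fbln1 differed by -0.51 and 0.066. Outside the set, the prolyl hydroxylase genes went both ways. Leprel2 and P4ha3 differed by -2.08 and -1.62 log2 units and Leprel1 by 0.97. Lepre1 differed by -0.053 on its brightest probe set, with another at -1.11. Of the 8 genes for collagen folding and modification, none was higher by at least 2-fold, against 4.88% of all genes, and the median difference was -0.016. Lower by at least 2-fold was 1 of the 8 (12.5%), near the 11.5% of all genes. That gene, Pcolce, encodes a secreted enhancer of procollagen C-proteinase and so acts outside the cell. It read 10.9 on the null-labelled array and 12.2 on the WT-labelled array, lower by 2.50-fold on one probe set and by 1.40 log2 units on the other.

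The 2 members that encode catalytic subunits of collagen prolyl 4-hydroxylase, P4ha1 and P4ha2, were higher on the null-labelled array as deposited. The third such gene, P4ha3, is outside the set and read 5.65 on the null-labelled array and 7.27 on the WT-labelled array, lower by 3.07-fold. P4ha2 read 10.6 on the null-labelled array and 9.94 on the WT-labelled array, higher by 1.58-fold. P4ha1 read 10.4 on the null-labelled array and 10.1 on the WT-labelled array, higher by 1.25-fold, with its 2 probe sets at 0.33 and 0.39. P4hb, their partner subunit and a general protein disulfide isomerase, read 12.8 on the null-labelled array and 13.0 on the WT-labelled array, a difference of -0.18, within the spread between probe sets. The P4ha1 difference was about the size of that spread, and the P4ha2 difference was larger than it. Relative to the stem cell markers described below, the P4ha1 difference turned to -0.27 and that of P4ha2 fell to 0.059.

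The lysyl hydroxylases, which modify collagen lysines for crosslinking and sugar attachment, split. Plod1 read 9.31 on the null-labelled array and 8.96 on the WT-labelled array, higher by 1.28-fold, which turned to a difference of -0.25 relative to the stem cell markers. Plod3 read 9.97 on the null-labelled array and 10.5 on the WT-labelled array, lower by 1.42-fold. Plod2, which hydroxylates the collagen telopeptides, read 11.2 on the null-labelled array and 11.0 on the WT-labelled array, and its 2 probe sets, at 0.15 and -0.19, disagreed in sign. Serpinh1, for the collagen chaperone Hsp47, read 12.4 on the null-labelled array and 13.1 on the WT-labelled array, lower by 1.63-fold.

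**Figure D3:**
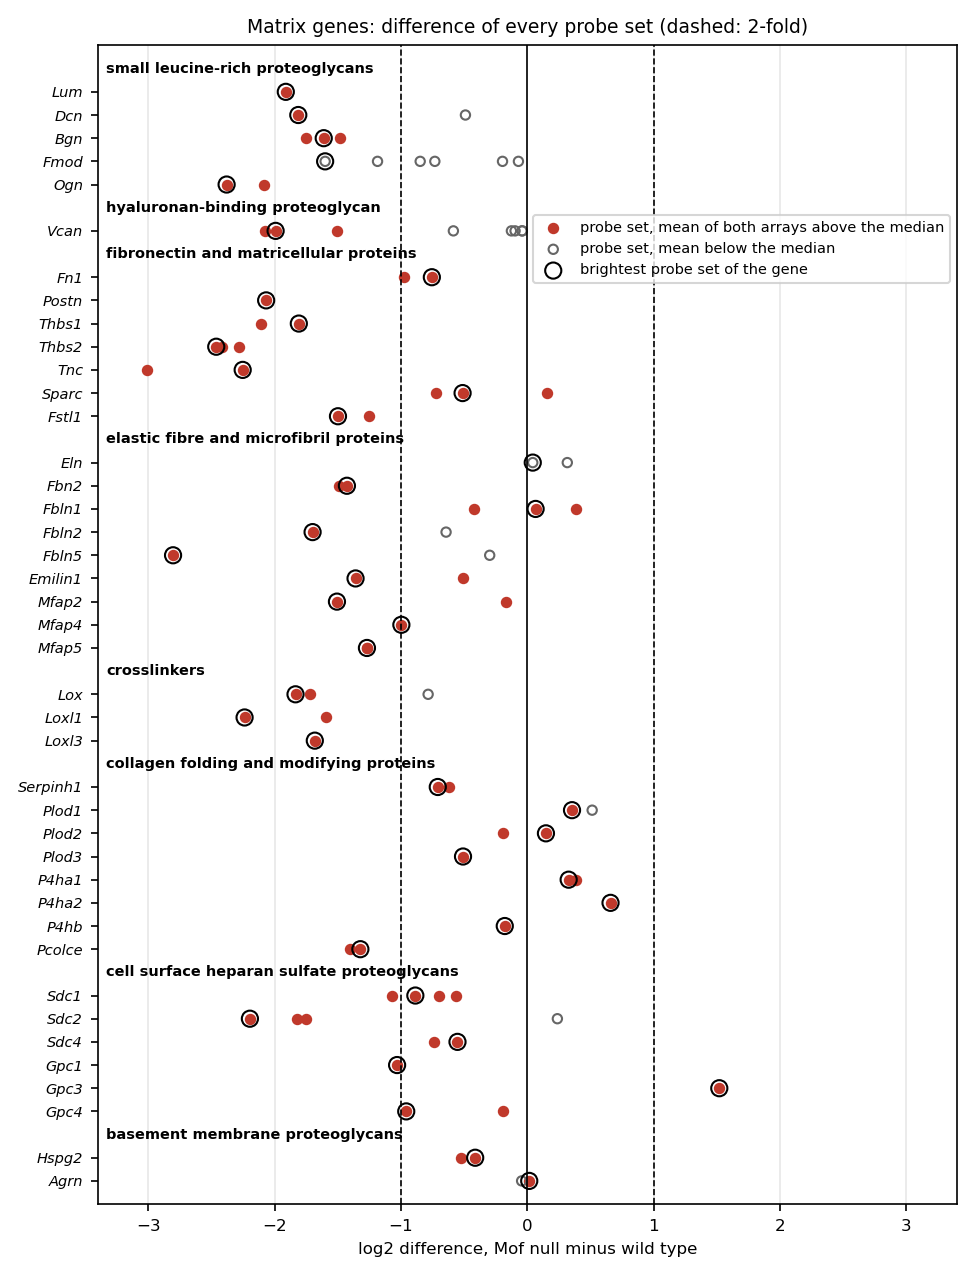
Difference (log2, Mof null minus wild type, horizontal axis) of each of the 92 probe sets of the 41 matrix genes; filled points had a mean of both arrays above the median of all values, open grey points did not, and black rings mark the brightest probe set of each gene. Probe sets of Thbs2, Bgn and Ogn lie close together, whereas those of Sparc, Fbln1 and Plod2 fall on both sides of 0.

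Cell surface heparan sulfate proteoglycans held the one member past 2-fold in the other direction. Gpc3, for glypican 3, a growth regulator of the embryo whose loss causes overgrowth, read 9.25 on the null-labelled array and 7.74 on the WT-labelled array, higher by 2.87-fold on its only probe set. Gpc4, its neighbour on the X chromosome, read 10.5 on the null-labelled array and 11.4 on the WT-labelled array, lower by 1.94-fold, with a second probe set at -0.19. Gpc1 read 8.86 on the null-labelled array and 9.89 on the WT-labelled array, lower by 2.04-fold, just past the threshold. The 3 glypican members thus went both ways, with Gpc3 apart from the other 2 by more than 2 log2 units. Of the further glypican genes, Gpc2 and Gpc5 lay below the level filter and Gpc6 is given below.

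The 3 syndecan members, for transmembrane heparan sulfate proteoglycans, were all lower, by different amounts. Sdc2, the syndecan of mesenchymal cells, read 7.74 on the null-labelled array and 9.94 on the WT-labelled array, lower by 4.58-fold, and its 3 probe sets above the filter lay between -2.20 and -1.75. Sdc1, the syndecan of epithelial cells, read 10.1 on the null-labelled array and 11.0 on the WT-labelled array, lower by 1.85-fold, with 1 of 4 probe sets past 2-fold at -1.07. Sdc4, a widely expressed syndecan of focal adhesions, read 10.9 on the null-labelled array and 11.4 on the WT-labelled array, lower by 1.47-fold. The basement membrane proteoglycans differed little. Agrn, for agrin, read 11.14 on the null-labelled array and 11.13 on the WT-labelled array, and Hspg2, for perlecan, read 10.2 on the null-labelled array and 10.6 on the WT-labelled array, lower by 1.33-fold.

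Markers of the feeder cell type moved with the members. All 17 fibroblast markers, none of them a member, were at least 2-fold lower, against 11.5% of all genes. Some of these markers, such as the collagen gene Col1a1, encode matrix proteins themselves. The 17 markers had a median difference of -2.07, with a range of -2.92 to -1.20. Their levels ran from 5.70 to 13.1 (median 9.72) on the null-labelled array and from 8.03 to 14.3 (median 11.8) on the WT-labelled array. Of them 16 stayed above the median of all values on the null-labelled array, and the exception was Dpt, for dermatopontin. The largest differences in that list were those of Col1a1 (-2.92), S100a4 (-2.66), Twist2 (-2.51) and Dpt (-2.34). Of the 39 members, 21 lay inside the range of the fibroblast markers, 18 above it and none below it. The 18 above it are Gpc1 and the 17 members that did not pass 2-fold lower. Of the 39 members, 6 lay below the markers' median difference. The marker at the upper end of the range, -1.20, had another probe set at -2.65. Macrophage markers were also lower, 10 of 11 by at least 2-fold, against 11.5% of all genes. Their median was -2.15, and they were led by Ptprc (-2.77), Tyrobp (-2.37), Emr1 (-2.31) and Fcgr3 (-2.22). The part of these cell types in the members' differences was not tested.

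The labelled cell type was checked with 11 stem cell markers. All 11 were above the level filter on each array, from 10.1 to 14.2 on the null-labelled array and from 10.1 to 13.8 on the WT-labelled array. Their median difference was 0.60, and 1 of 11 was at least 2-fold higher, against 4.88% of all genes. The largest differences were those of Fgf4 (1.52), Tdgf1 (0.94), Utf1 (0.78) and Sox2 (0.76). Of 10 extraembryonic endoderm markers above the filter, 7 were at least 2-fold higher, against 4.88% of all genes. None of the 10 was lower, and their median was 1.20. They were led by Amn (3.11), Cubn (2.66), Lama1 (1.65) and Sox17 (1.43), and their levels ran from 7.45 to 11.9 on the null-labelled array and from 6.85 to 10.9 on the WT-labelled array. Of 5 endothelial markers only Esam (1.07) and Tek (0.62) reached the filter, both higher.

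**Figure D4:**
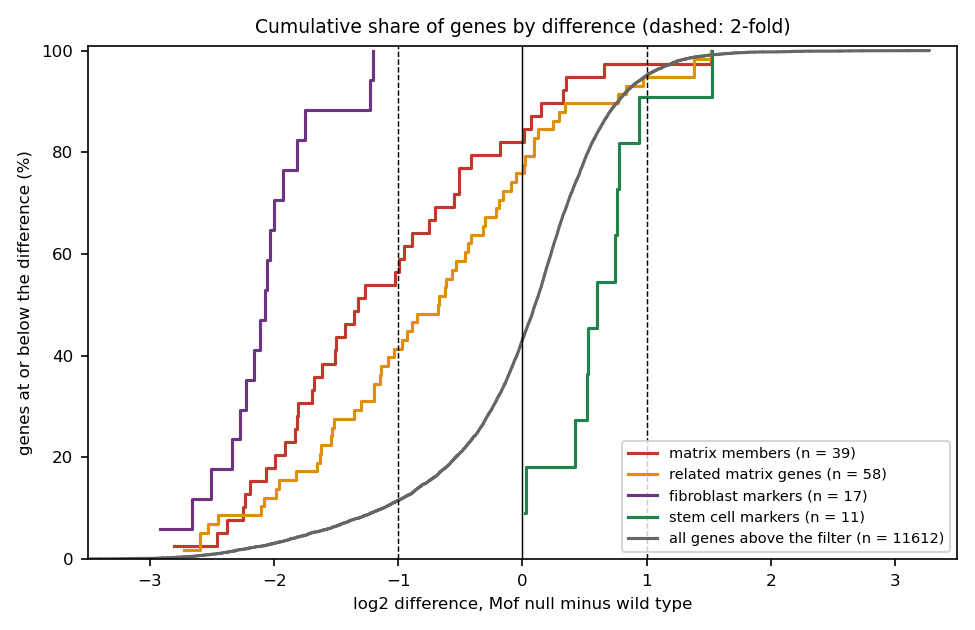
Cumulative share of genes (percent, vertical axis) at or below each difference (log2, Mof null minus wild type, horizontal axis) for the 39 matrix members, 58 related matrix genes, 17 fibroblast markers, 11 stem cell markers and all 11612 genes above the level filter; dashed lines mark 2-fold. The members' curve lies between those of the fibroblast markers and of all genes, and the stem cell markers lie to the right of 0.

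Relatives of the members were also more often lower than higher. Of 86 further genes of the same families, 58 were measured above the filter, 24 of them lower by at least 2-fold and 3 higher by that much, with a median of -0.68, beside 11.5% and 4.88% of all genes. Of 10 further matricellular genes 6 were lower by at least 2-fold and 1 was higher. The CCN family genes Wisp1 and Nov differed by -2.60 and -2.53, the matrilin gene Matn2 by -1.99 and the Sparc-related gene Smoc1, the one that was higher, by 1.38. Of 8 further elastic fibre genes 4 passed 2-fold, all of them lower. Efemp1, a fibulin family gene, differed by -2.73, and the genes for latent TGF-beta binding proteins Ltbp2, Ltbp1 and Ltbp3 by -2.11, -1.96 and -1.54.

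Of 13 further collagen-processing genes, 5 passed 2-fold and all of these were lower, against 11.5% of all genes. They held enzymes that act outside the cell and enzymes that act inside it. The procollagen C-proteinases Tll1 and Bmp1 differed by -2.60 and -1.82, and the prolyl hydroxylase genes Leprel2 and P4ha3 by -2.08 and -1.62. The prolyl hydroxylase genes Leprel1 and Lepre1 did not pass 2-fold on their brightest probe sets, at 0.97 and -0.053. Of further proteoglycan genes above the filter, Sdc3 and Gpc6 differed by -1.53 and -1.36 on their brightest probe sets, but other probe sets of these genes lay at 0.29 and -0.021. Prelp, a small leucine-rich proteoglycan gene, differed by -1.65 and Cspg4 by -0.53 with another probe set at -1.68, while Srgn, for the intracellular proteoglycan serglycin, and Acan, for aggrecan, were higher by 1.52 and 1.38 log2 units.

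The promoter windows of the members were described for letters only. Of the members, 29 had a promoter in the RefSeq table, 27 of them measured. ACGTG or GCGTG on either strand stood in 6 of the 16 windows of members at least 2-fold lower, in 13 of the 15 windows of members under 2-fold and in the Gpc3 window, beside 43.8% of all 32851 windows of the same length. The letters and their complement overlap in CACGTG, which was then counted on both strands. In the sequences above the motif stands 4 times in P4ha2 and in Gpc3, 3 times in P4ha1 and 1 time in Gpc4. Such counts were not particular to members that were higher. Plod3 (-0.51) also had 4 matches and P4hb (-0.18) had 3. Fbln5 (-2.80) had 4 in 1 window and 0 in its other window. GGGCGG, the GC box, stood in 9 of 16, 12 of 15 and 1 of 1, beside 35.7% of all windows. TATAAA stood in 5 of 16, 2 of 15 and 0 of 1, beside 13.6%, and CCAAT in 6 of 16, 3 of 15 and 1 of 1, beside 37.4%. TGANTCA, the letters of an AP-1 site, stood in none of them, beside 7.81%. These sets also differ in base composition, which bears on each of these counts. The median GC content was 56.7% in the windows of members at least 2-fold lower, 66.3% in those of members under 2-fold and 70.7% for Gpc3, beside 52.7% for all windows. A match of letters is not a binding site, and several genes have 2 windows. The 16 windows belong to 12 genes and the 15 to 13 genes. The windows of Tnc overlap, as do those of Fbln1 and of Mfap2, so the same bases can be counted in 2 windows.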

How the data were processed

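Total RNA of each culture was labelled with biotin and hybridised to 1 array. For 45101 probe sets the authors deposited log2 values, which the submitters' processing notes link to RMA, affy and R 2.10.0. The scale was read from the range (2.85 to 14.7 on the null-labelled array, 2.77 to 14.6 on the WT-labelled array). RMA equalises the distributions of the arrays, so a change of most transcripts in one direction cannot be seen. The number of arrays limits the precision.

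Probe sets were named from the platform annotation, which gave 34958 probe sets 1 symbol, 932 several symbols and left 9211 unlisted. The 34945 with 1 symbol and 1 gene ID that are no controls were used. A gene took its brightest probe set by mean over both arrays, and 11612 of 18193 genes had a mean of at least 6.02 (percentile 50 of all values). No test was possible. The counting was tested on simulated data. Older symbols were matched through RefSeq (GRCm38.p6), which holds the IDs of 34741 probe sets. The members, lists and alternatives were chosen with earlier results of these data known. Described are all members past 2-fold, all higher members, those whose probe sets disagree, those below the filter, and of each other list at most 4 genes by size; the remaining members were added to account for every member. Loxl4, Leprel1 and Lepre1 fall outside this rule and were named after their values were seen. Alternatives were the mean of all probe sets, leaving out the suffixes _s_at, _x_at and _a_at, other level filters (percentile 75, none, or the higher value), centring on the median gene or on the stem cell markers, a lowess trend correction (span 0.3), quantile normalization, counting probe sets, thresholds of 1.5-fold and 4-fold, and leaving out the most different member. The software was matplotlib 3.10.9, pandas 2.3.3, numpy 2.4.6 and statsmodels 0.14.6 under Python 3.11.15.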

Additional observations from a re-analysis of the deposited data

How the results depend on the processing

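With differences taken relative to the stem cell markers, 31 members passed 2-fold as lower and 0 as higher, the members' median was -1.92 and that of the related genes -1.28; of all genes 23.9% were then lower and 0.680% higher, against 11.5% and 4.88% as deposited. Counting probe sets instead of genes gave 40 of 72 lower, against 10.5% of all probe sets. At 1.5-fold 2 members were higher, against 17% of all genes, and 27 lower, against 18.8%; at 4-fold 7 were lower and 0 higher. Under the other level filters, probe set choices and scalings, the count of lower members ran from 19 of 38 (mean of all probe sets, against 9.24% of all genes) to 25 of 39 (trend removed, against 12.8%), 1 member was higher, and the members' median ran from -1.45 to -1.01. Under the mean of all probe sets 10 of 38 member differences moved by more than the spread between probe sets. Fbln1 ran from -0.42 to 0.066, Plod2 from -0.021 to 0.15 and Agrn from -0.12 to 0.015 over these settings, so they have no settled direction, while Gpc3 ran from 1.42 to 1.58, P4ha2 from 0.51 to 0.66 and P4ha1 from 0.18 to 0.36. Relative to the stem cell markers, however, P4ha1 turned to -0.27 and Plod1 to -0.25, and P4ha2 and Gpc3 fell to 0.059 and 0.92, so the direction of P4ha1 and Plod1 depends on the scaling. The cause of these shifts was not tested. No paired analysis was possible because there is 1 array per genotype, and leaving out a replicate was not possible for the same reason. Probe sets near the floor or the top of the scale limit what differences can be read.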

Other observations

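Genes that build or modify the sugar chains of proteoglycans, or make hyaluronan, were measured beside the core proteins. Of 20 above the level filter, 6 passed 2-fold as lower on the null-labelled array and none as higher, beside 11.5% and 4.88% of all genes, with a median of -0.62. Hs6st2, which adds 6-O-sulfate to heparan sulfate, read 9.11 on the null-labelled array and 11.6 on the WT-labelled array, lower by 5.47-fold on the brightest probe set. Has2, a hyaluronan synthase, read 7.20 on the null-labelled array and 8.83 on the WT-labelled array, lower by 3.10-fold. Sulf1, which removes 6-O-sulfate from heparan sulfate outside the cell, read 9.16 on the null-labelled array and 10.7 on the WT-labelled array, lower by 2.86-fold. B4galt7, which adds a galactose of the linker that joins chain and core protein, read 6.73 on the null-labelled array and 7.92 on the WT-labelled array, lower by 2.29-fold. As with the members, fibroblast markers were lower on the same arrays (median -2.07, 17 of 17 at least 2-fold), and their part was not tested.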
